A study of Mus musculus with 2 samples.

Results

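The 8 genes described here belong to the BCL2 family, whose proteins decide at the mitochondrion whether a cell lives or dies. They are Bcl2, the 3 near-identical paralogues Bcl2a1a, Bcl2a1b and Bcl2a1d, Mcl1, Bcl2l1, Bcl2l11 and Bax, found by their symbols among the 32285 genes of the deposited matrices. The genes, and the division of the cells by Tmem176b, were chosen from values measured earlier in these same cells, so the levels and differences below are descriptions and carry no test. Lung γδ T cells of uninfected mice aged 5 to 7 weeks were sorted and read by droplet single-cell RNA sequencing. One library held Vγ1-negative γδ T cells of wild-type C57BL/6NCrl mice (WT). The other held Vγ1-positive γδ T cells of mice lacking the Vγ4 and Vγ6 chains, with the strain label B6.Cg-Tcrgtm1lku(B6.Vg4-/-Vg6-/-) (KO). Each genotype was thus represented by 1 library, the genotype could not be told apart from the sorted subset or from the library, and how many mice entered each library is not given in the sources used here.

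BCL2, MCL1, BCL-XL (the product of Bcl2l1) and A1 (the product of the Bcl2a1 genes) are pro-survival proteins, which bind and restrain their death-promoting relatives. BIM, the product of Bcl2l11, is a BH3-only protein that neutralises the pro-survival members, and BAX is an effector that permeabilises the outer mitochondrial membrane. In T cells, BCL2 is known as a survival factor maintained by IL-7, and A1 as a product of NF-κB-driven transcription. Lung Vγ6 cells and some Vγ4 cells make IL-17, and Tmem176b, which encodes a membrane protein, is abundant in IL-17-producing lymphocytes.

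The 3 Bcl2a1 paralogues lie on chromosome 9 of the GRCm38 (mm10) build, Bcl2a1d at chr9:88723285-88731914 on the minus strand, Bcl2a1a at chr9:88956900-88962419 and Bcl2a1b at chr9:89199209-89207827, both on the plus strand. Each has a 2-exon transcript. Their sequences are shown because they set how far the counts of the 3 genes can be separated. The transcripts of Bcl2a1b and Bcl2a1d were identical at 810 of 817 aligned bases (99.1%), those of Bcl2a1a and Bcl2a1d at 809 of 819 (98.8%) and those of Bcl2a1a and Bcl2a1b at 802 of 817 (98.2%). Of the 519 coding bases, 12 differed among the 3 genes. At 6 of the 12 positions only Bcl2a1a differed, at 5 only Bcl2a1b and at 1 only Bcl2a1d. The first 120 coding bases, in exon 1, carry 7 of the 12 differences, written in capitals (GENCODE vM21, GRCm38, at chr9:88957051-88957170, chr9:89199360-89199479 and chr9:88731600-88731719).
Bcl2a1a: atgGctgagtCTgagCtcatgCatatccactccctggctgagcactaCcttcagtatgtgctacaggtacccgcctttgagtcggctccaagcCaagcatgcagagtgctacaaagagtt
Bcl2a1b: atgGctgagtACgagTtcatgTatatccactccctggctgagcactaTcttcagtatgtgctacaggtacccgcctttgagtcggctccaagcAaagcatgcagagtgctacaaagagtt
Bcl2a1d: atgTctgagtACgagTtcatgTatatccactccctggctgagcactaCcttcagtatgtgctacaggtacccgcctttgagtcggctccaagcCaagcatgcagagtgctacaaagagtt

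Coding bases 301 to 420 carry 4 more differences, again in capitals, and show that only Bcl2a1a and Bcl2a1b had bases of their own in this stretch (GENCODE vM21, GRCm38, at chr9:88957351-88957470, chr9:89199660-89199779 and chr9:88731300-88731419).
Bcl2a1a: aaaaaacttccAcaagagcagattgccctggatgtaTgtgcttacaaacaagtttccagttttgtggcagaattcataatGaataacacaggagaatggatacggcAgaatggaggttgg
Bcl2a1b: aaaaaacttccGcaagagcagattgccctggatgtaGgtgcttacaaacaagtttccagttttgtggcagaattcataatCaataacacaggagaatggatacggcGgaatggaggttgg
Bcl2a1d: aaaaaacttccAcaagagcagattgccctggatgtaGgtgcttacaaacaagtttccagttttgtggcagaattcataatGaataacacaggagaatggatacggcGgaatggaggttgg

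A read therefore names 1 paralogue only where the bases it covers, coding or not, tell that paralogue from both others. Of all 50-base windows of its transcript, 32.3% for Bcl2a1a, 42.4% for Bcl2a1b and 20.5% for Bcl2a1d were found in neither of the other paralogues, and 90-base windows gave 53.0%, 63.9% and 38.4%. In the first 250 bases the shares of such 50-base windows were 49.3%, 65.7% and 47.8%, and in the last 250 bases they were 24.9%, 24.9% and 0%. Bcl2a1d thus had the fewest windows of its own, and none near its 3′ end. Which end of the transcript was read matters here, and the sources differ, since the study's methods name a 5′ immune-profiling kit and the sample labels a 3′ protocol. A counter that keeps only uniquely placed reads drops the shared ones, so the 3 counts are uncertain one against another, and their sum, called the summed Bcl2a1 level below, is also short by an unknown amount. Whether the shortfall differs between cell groups, as it may where the mix of paralogues does, was not tested. Levels are compared between cell groups and not between genes.

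The stretches upstream of the transcription starts of the 3 paralogues were as alike as the transcripts. They are shown because Bcl2a1a differed in level between cell groups in another way than Bcl2a1b and Bcl2a1d (RefSeq, GRCm38.p6, at chr9:88956730-88956855, chr9:89199039-89199164 and chr9:88731915-88732034). Capitals mark a base and a 6-base insertion by which Bcl2a1a and Bcl2a1b differed from Bcl2a1d.
Bcl2a1a: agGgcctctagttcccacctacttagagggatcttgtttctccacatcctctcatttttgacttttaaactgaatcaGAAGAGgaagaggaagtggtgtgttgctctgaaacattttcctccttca
Bcl2a1b: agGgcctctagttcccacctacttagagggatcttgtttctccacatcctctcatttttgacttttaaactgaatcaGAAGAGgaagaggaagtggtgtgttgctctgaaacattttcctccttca
Bcl2a1d: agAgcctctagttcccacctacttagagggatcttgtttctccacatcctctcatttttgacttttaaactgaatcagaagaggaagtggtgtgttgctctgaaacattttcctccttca

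Over this stretch Bcl2a1a and Bcl2a1b were the same letter for letter. The letters GAGGAAGT, a core bound by ETS factors, were searched on both strands of the window from 250 bases before to 50 bases after each start. They occurred in each of the 3 Bcl2a1 windows, in none of the windows of the other 5 genes, and in 3.20% of all 32851 windows. A form of the NF-κB motif searched the same way was in none of the 3 Bcl2a1 windows, in the Mcl1 window, in 1 of the 3 windows of Bcl2l1 and in 1.63% of all windows. A window with no match says only that these letters are not in the window.

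The remaining 5 genes have no such near-identical partner among the 8. Bcl2 lies at chr1:106538178-106714274 on the minus strand, Bcl2l1 at chr2:152780668-152831728 on the minus strand, Bcl2l11 at chr2:128126038-128162547 on the plus strand, Mcl1 at chr3:95658788-95663176 on the plus strand and Bax at chr7:45461697-45466898 on the minus strand. Bcl2 spans 176097 bases, nearly all of it intron, and whether intronic reads were counted is not given in the sources used here.

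After the study's filters on genes and mitochondrial reads, 2505 of 2520 WT barcodes and 6634 of 6688 KO barcodes were kept, with medians of 3288 and 3521 unique molecular identifiers (UMIs, each standing for 1 captured RNA molecule) per cell. Of the kept cells, 90.9% and 96.5% had a UMI of a Cd3 gene or Trdc, the T cell markers, and 23 barcodes were shared by the libraries. Of the γ-chain variable genes, Tcrg-V6 had 0 UMIs in the KO library, but Tcrg-V4 had 1291 UMIs in 990 of its cells, against the strain label, so that library is called KO-labelled throughout. The cell groups compared were 520 WT cells with UMIs of Tcrg-V6 and of no other Tcrg variable gene (WT Vγ6 cells), 410 WT cells with UMIs of Tcrg-V4 alone (WT Vγ4 cells), and 2880 KO-labelled cells with a Tcrg-V1 UMI (KO-labelled Vγ1 cells). They held 1980078, 1583206 and 13535901 UMIs, so the Vγ1 values are the most precise. A Tmem176b UMI was detected in 88.1% of the Vγ6 cells, in 41.0% of the Vγ4 cells and in 31.6% of the Vγ1 cells, and the cells with and without one are called Tmem176b+ and Tmem176b-. Since detection depends on depth, the median of UMIs per cell stands beside the split: 3661 and 2620 in Vγ6 cells, 3396 and 3459 in Vγ4 cells, and 4542 and 3967 in Vγ1 cells.

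Levels are given as CPM, the counts of a gene summed over the cells of a group and scaled to 1000000 UMIs, with exact Poisson 95% intervals, and differences as the log2 ratio of 2 CPM values with an exact conditional interval. These intervals hold counting error and nothing else. The spread between animals could not be estimated from 1 library a group, and the cells are not replicates. As a yardstick, the share of all genes with at least 30 UMIs in the 2 groups whose CPM differed more than 2-fold is given beside the count of the 8 genes that did. The members were selected on such contrasts, and nothing is read from that comparison.

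Bcl2, the best known of the pro-survival genes, was lowest in WT Vγ6 cells and similar in the other groups. Its level was 60.1 CPM (49.8 to 71.9) in Vγ6 cells from 119 UMIs, 89.7 CPM (75.5 to 106) in Vγ4 cells from 142 UMIs and 106 CPM (100.7 to 112) in Vγ1 cells from 1436 UMIs. The log2 ratio was -0.58 (-0.94 to -0.22) for Vγ6 over Vγ4 cells and 0.82 for Vγ1 over Vγ6 cells. For Vγ1 over Vγ4 cells it was 0.24 (-0.01 to 0.50), an interval that includes 0. Without the Vγ1 cells that also held another Tcrg variable gene, such as Tcrg-V4, 2128 were left, and the last ratio was 0.28 (0.02 to 0.54), past 0. The Tmem176b split separated the levels further. In Vγ4 cells Bcl2 was 54.8 CPM (38.0 to 76.6) in Tmem176b+ and 112 CPM (92.0 to 135) in Tmem176b- cells, a log2 ratio of -1.03 (-1.63 to -0.46). In Vγ1 cells it was 79.9 CPM (71.9 to 88.5) and 119 CPM (112 to 127), a log2 ratio of -0.58 (-0.76 to -0.41). Bcl2 was thus lower in the Tmem176b+ cells of both groups, beyond counting error. In Vγ6 cells the direction was not resolved: 61.4 CPM (50.5 to 74.0) in Tmem176b+ cells and 46.1 CPM (19.9 to 90.8) in the 62 Tmem176b- cells, from only 8 UMIs. The Bcl2 levels of Tmem176b+ Vγ6 and Tmem176b+ Vγ4 cells differed by less than counting error, with a log2 ratio of 0.16 (-0.40 to 0.76), as did those of Tmem176b- Vγ1 and Tmem176b- Vγ4 cells (0.09, -0.20 to 0.39). Tmem176b+ Vγ1 cells were above both Tmem176b+ WT groups, with log2 ratios of 0.54 (0.03 to 1.09) over Tmem176b+ Vγ4 and 0.38 (0.07 to 0.70) over Tmem176b+ Vγ6 cells. Where WT cells needed at least 2 UMIs of their own Tcrg variable gene, 99 Vγ4 cells were left, and the log2 ratio of Tmem176b+ Vγ6 over Tmem176b+ Vγ4 cells was 1.38 (0.10 to 3.03). With WT cells holding any UMI of the gene, that of Tmem176b+ Vγ1 over Tmem176b+ Vγ4 cells was 0.22 (-0.15 to 0.62), an interval that includes 0.

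The Bcl2a1 paralogues, which encode A1, followed nearly the reverse order. Bcl2a1b was 626 CPM (592 to 662) in WT Vγ6 cells, 141 CPM (123 to 161) in Vγ4 cells and 144 CPM (138 to 151) in KO-labelled Vγ1 cells. Bcl2a1d was 414 CPM (386 to 443), 92.8 CPM (78.4 to 109) and 106 CPM (100.5 to 111). Vγ6 cells were therefore far above both other groups for either gene. The log2 ratio of Vγ6 over Vγ4 cells was 2.15 (1.95 to 2.36) for Bcl2a1b and 2.16 (1.90 to 2.42) for Bcl2a1d, and that of Vγ1 over Vγ4 cells was 0.03 (-0.17 to 0.24) and 0.19 (-0.06 to 0.44). The comparison of Vγ1 with Vγ4 cells depended on which cells were used. For Bcl2a1b it was -0.58 (-0.87 to -0.27) with at least 2 own Tcrg variable gene UMIs in WT cells, -0.48 (-0.63 to -0.33) with WT cells holding any UMI of the gene, and -0.26 (-0.48 to -0.04) without cells holding 2 or more myeloid or B cell UMIs. Bcl2a1b was higher in Tmem176b+ cells of all 3 groups: 645 against 432 CPM in Vγ6 cells, 227 against 85.1 CPM in Vγ4 cells and 324 against 52.6 CPM in Vγ1 cells. The log2 ratios were 0.58 (0.24 to 0.93), 1.42 (1.01 to 1.83) and 2.62 (2.47 to 2.77). Bcl2a1d moved the same way, with log2 ratios of 0.36 (-0.03 to 0.78), 1.55 (1.04 to 2.07) and 2.56 (2.39 to 2.74), although in Vγ6 cells its interval includes 0. Among Tmem176b+ cells alone Bcl2a1b was ordered Vγ6 (645 CPM), Vγ1 (324 CPM) and Vγ4 (227 CPM). Vγ6 cells stood above both others, but the order of the other two depended on the grouping of WT cells. The log2 ratio of Tmem176b+ Vγ1 over Tmem176b+ Vγ4 cells was 0.51 (0.26 to 0.77), and 0.0045 (-0.35 to 0.38) with at least 2 own UMIs and -0.11 (-0.28 to 0.06) with any UMI of the Tcrg variable gene in WT cells.

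Bcl2a1a stood apart from its paralogues, as of these groups it was read almost only in Vγ6 cells. It had 151 UMIs (76.3 CPM, 64.6 to 89.4) in the 520 Vγ6 cells, 2 UMIs (1.26 CPM, 0.153 to 4.56) in the 410 Vγ4 cells and 5 UMIs (0.369 CPM, 0.120 to 0.862) in the 2880 Vγ1 cells. The log2 ratio was 5.92 (4.04 to 8.97) for Vγ6 over Vγ4 cells and -7.69 (-9.33 to -6.44) for Vγ1 over Vγ6 cells. Unlike Bcl2a1b, it did not separate by Tmem176b within Vγ6 cells, at 76.4 CPM (64.2 to 90.3) in Tmem176b+ and 74.9 CPM (39.9 to 128) in Tmem176b- cells. In Tmem176b+ Vγ4 and Tmem176b+ Vγ1 cells, which held 141 and 1481 UMIs of Bcl2a1b, there was 1 UMI and there were 2 UMIs of Bcl2a1a.

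Mcl1, which encodes a short-lived pro-survival protein, and Bcl2l1, which encodes BCL-XL, went in opposite directions between Vγ6 cells and the other groups, and by Tmem176b in Vγ1 cells. Mcl1 was 68.7 CPM (57.6 to 81.2) in Vγ6, 96.0 CPM (81.4 to 113) in Vγ4 and 107 CPM (102 to 113) in Vγ1 cells. It was lower in Tmem176b+ than in Tmem176b- cells of each group, at 62.0 against 138 CPM, 66.1 against 115 CPM and 70.9 against 126 CPM. The log2 ratios were -1.16 (-1.80 to -0.46), -0.80 (-1.36 to -0.27) and -0.83 (-1.01 to -0.65), and all 3 intervals lie below 0. Bcl2l1 was 35.9 CPM (28.0 to 45.2) in Vγ6 cells, 6.32 CPM (3.03 to 11.6) in Vγ4 cells and 13.9 CPM (11.97 to 16.0) in Vγ1 cells. In Vγ1 cells it was 25.6 CPM in Tmem176b+ and 7.92 CPM in Tmem176b- cells, a log2 ratio of 1.69 (1.25 to 2.14). In the WT groups the split rested on 3 and 2 UMIs on 1 side and the order was not resolved. The order of Vγ1 and Vγ4 cells also depended on how WT cells were grouped: the log2 ratio of Vγ1 over Vγ4 cells was 1.14 (0.23 to 2.22), and -0.051 where WT cells with UMIs of several Tcrg variable genes were let in.

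Of the death-promoting members, Bcl2l11 was, like Bcl2, lowest in Vγ6 cells, and Bax hardly varied. For Vγ1 over Vγ4 cells the 2 genes differed in direction, with log2 ratios of -0.22 (-0.37 to -0.07) for Bcl2l11 and 0.24 for Bcl2. Bcl2l11, which encodes BIM, was 111 CPM (96.4 to 126) in Vγ6 cells, 268 CPM (244 to 295) in Vγ4 cells and 230.3 CPM (222 to 239) in Vγ1 cells. It was lower in Tmem176b+ cells of the Vγ4 group (179 against 326 CPM, log2 ratio -0.87) and of the Vγ1 group (173 against 259.8 CPM, log2 ratio -0.59), and was 110.2 against 115 CPM in Vγ6 cells. The effector Bax was 142 CPM (126 to 160) in Vγ6, 119 CPM (103 to 138) in Vγ4 and 132 CPM (126 to 138) in Vγ1 cells, and its 6 levels by group and Tmem176b ran from 116 to 144 CPM. All 3 Bax intervals of the Tmem176b split included 0, at log2 ratios of 0.25 (-0.39 to 0.97), -0.07 (-0.51 to 0.37) and -0.01 (-0.16 to 0.13).

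**Figure D1:**
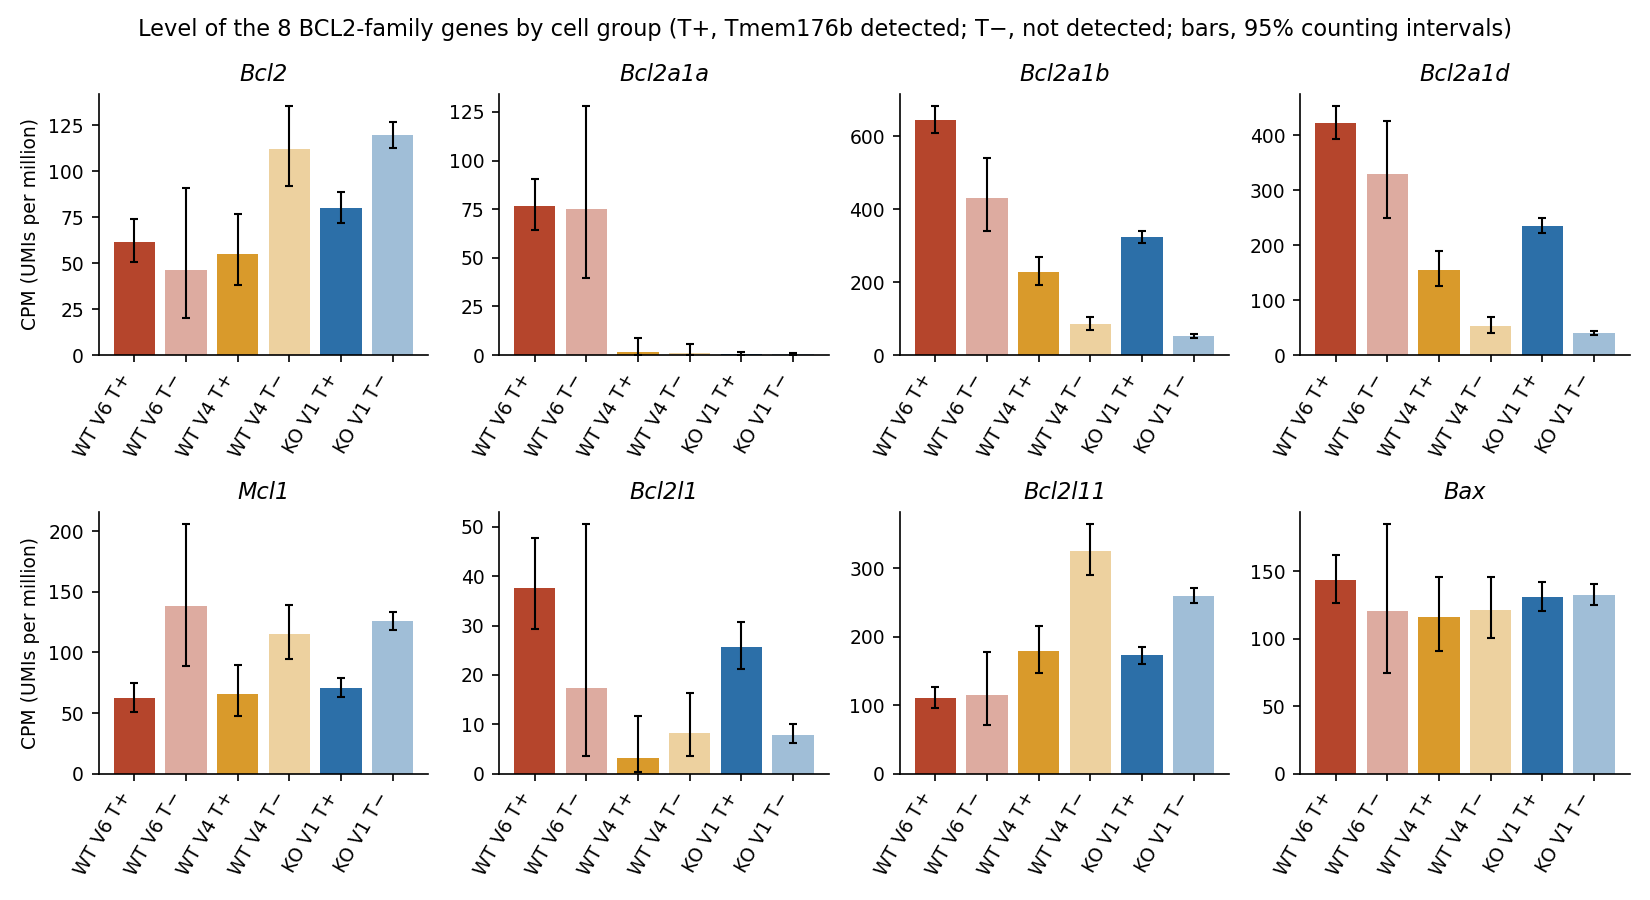
Level of each of the 8 genes (vertical axes, CPM, with a scale of its own in each panel) in the 6 cell groups, WT Vγ6, WT Vγ4 and KO-labelled Vγ1 cells with (T+) and without (T−) a Tmem176b UMI. Bars are the CPM of summed UMIs and lines the exact Poisson 95% intervals. Bcl2a1b ranges from 645 CPM in T+ Vγ6 cells to 52.6 CPM in T− Vγ1 cells while Bcl2 is between 46.1 and 119 CPM, and Bcl2a1a is near 0 outside the Vγ6 cells.

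More than 2-fold differences were counted for the members with at least 30 UMIs. For Vγ6 over Vγ4 cells 4 were higher (the 3 Bcl2a1 genes and Bcl2l1) and 1 was lower (Bcl2l11), 5 of 8, where 10.4% of 8133 genes differed that much. For Vγ1 over Vγ6 cells the same 5 genes passed 2-fold in the other direction, beside 18.2% of 10780 genes. For Vγ1 over Vγ4 cells 1 of 7 did, Bcl2l1, beside 9.17% of 10754 genes. These 3 comparisons share their cells pairwise and are not independent. For Tmem176b+ over Tmem176b- cells it was 2 of 8 in Vγ6 cells (Bcl2l1 higher from 3 UMIs in the lower group, Mcl1 lower; all genes 16.1%), 3 of 6 in Vγ4 cells (Bcl2a1b and Bcl2a1d higher, Bcl2 lower; all genes 11%) and 3 of 7 in Vγ1 cells (Bcl2a1b, Bcl2a1d and Bcl2l1 higher; all genes 11.6%). Among Tmem176b+ cells, 4 of 8 members were more than 2-fold higher in Vγ6 than in Vγ4 cells (all genes 8.47%), 1 of 8, Bcl2a1a, was lower in Vγ1 than in Vγ6 cells (all genes 10.2%), and 1 of 7, Bcl2l1, was higher in Vγ1 than in Vγ4 cells (all genes 10.6%). Among Tmem176b- cells, 0 of 7 passed 2-fold between Vγ1 and Vγ4 cells (all genes 9.54%).

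Bcl2 was then set against the summed Bcl2a1 genes within each group. The number of Bcl2 UMIs per 100 Bcl2a1 UMIs is not a comparison of the levels of different genes, which would need a correction for length and for the lost shared reads, but it can be compared between cell groups. It was 5.38 (4.44 to 6.48) in WT Vγ6 cells, 38.2 (31.2 to 46.4) in WT Vγ4 cells and 42.3 (39.8 to 45.1) in KO-labelled Vγ1 cells. Within Vγ6 cells it was nearly the same with and without Tmem176b, at 5.38 (4.40 to 6.51) and 5.52 (2.34 to 11.2). In Vγ4 cells it was 14.3 (9.67 to 20.5) and 80.6 (62.0 to 105), and in Vγ1 cells 14.3 (12.7 to 15.9) and 129 (117 to 141). Tmem176b+ Vγ4 and Tmem176b+ Vγ1 cells, from different libraries, thus had ratios that differed by less than counting error. In the Vγ4 cells with at least 2 UMIs of Tcrg-V4 the ratio was instead 4.81 (1.53 to 11.6) with a Tmem176b UMI, and with any UMI of the gene it was 11.4 (8.73 to 14.7). In Vγ1 cells the difference between Tmem176b+ and Tmem176b- cells lay mainly in the denominator: the summed Bcl2a1 level was 559.8 against 92.8 CPM, and Bcl2 was 79.9 against 119 CPM. In Vγ4 cells both parts differed, with log2 ratios of 1.46 (1.15 to 1.78) for the summed Bcl2a1 level and -1.03 for Bcl2. In the 2128 Vγ1 cells with no other Tcrg variable gene the ratio was 46.0 (42.7 to 49.6), and it was 14.7 with and 134 without a Tmem176b UMI. The log2 ratios of Vγ1 over Vγ6 cells there were -2.21 for Bcl2a1b and 0.85 for Bcl2.

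The division of the cells was part of the choice of this set of genes, so cells outside it were also read. The choice of these cells was made after seeing the data, and they come from the same libraries. Among cells with no Tcrg variable gene UMI, 251 WT cells with a Tmem176b UMI had a ratio of 7.53 (5.18 to 10.6) and 778 without one had 81.2 (69.1 to 95.3). In the KO-labelled library 492 such cells with a Tmem176b UMI had 13.8 (11.5 to 16.3) and 2714 without one had 199 (180 to 221). Bcl2a1b, Bcl2 and Bcl2l11 differed in the same directions as in the Vγ4 and Vγ1 cells. Bcl2a1b was 370 against 107 CPM in these WT cells and 352 against 38.4 CPM in these KO-labelled cells. Bcl2 was 44.8 against 126 CPM and 83.2 against 133 CPM, and Bcl2l11 162 against 348 CPM and 199.6 against 299 CPM. Mcl1 was 89.6 (69.8 to 113) against 104 CPM (90.8 to 118) in the WT cells, with overlapping intervals, and 83.2 against 135 CPM in the KO-labelled cells. Bax was 122 against 121 CPM and 127 against 133 CPM.

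**Figure D2:**
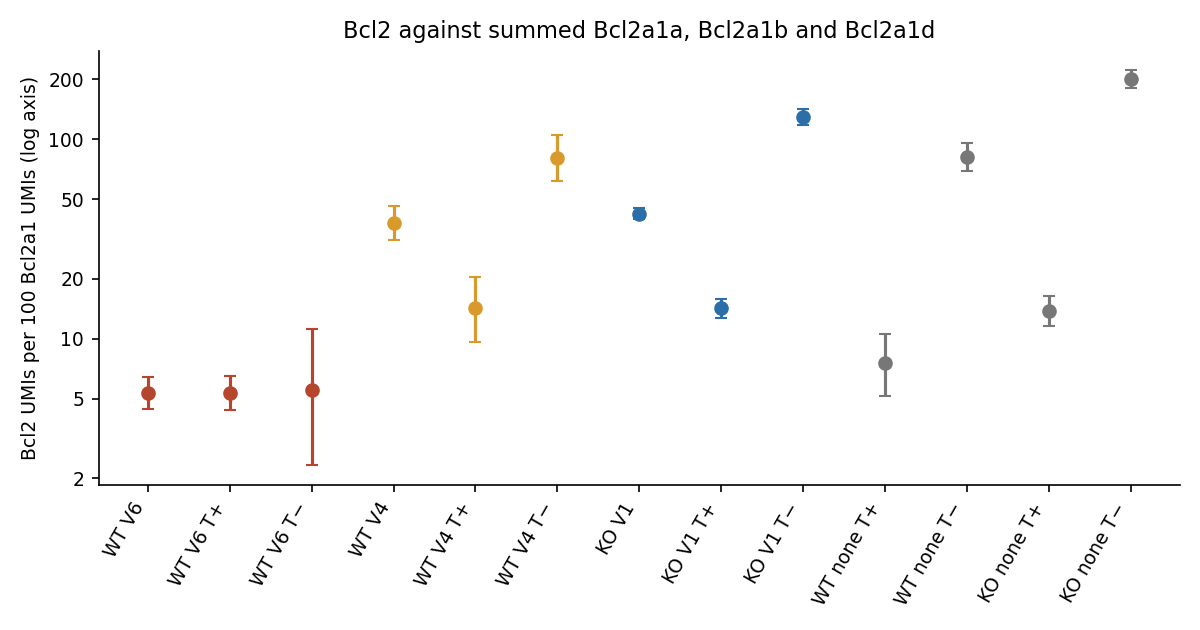
Bcl2 UMIs per 100 UMIs of Bcl2a1a, Bcl2a1b and Bcl2a1d together (log axis) in the cell groups, and in cells of each library with no Tcrg variable gene UMI, with (T+) and without (T−) a Tmem176b UMI. Points are ratios of summed UMIs and lines exact 95% intervals. Tmem176b+ groups lie between 5.38 and 14.3, and the Tmem176b- groups, apart from Vγ6 cells at 5.52, between 80.6 and 199.

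The Tmem176b split has its boundary at 1 UMI, so levels were also read by the number of Tmem176b UMIs in a cell. In KO-labelled Vγ1 cells the 220 cells with exactly 1 Tmem176b UMI had 182 CPM of Bcl2a1b (156 to 210) and the 1969 cells with 0 had 52.6 CPM. With 2 UMIs Bcl2a1b was 324 CPM, with 3 to 5 it was 374 CPM and with 6 or more 374 CPM. It was therefore higher in each of the first bins and level from 3 UMIs on. Bcl2 was 119 CPM at 0 UMIs, 101 CPM (82.1 to 123) at 1, 80.4 CPM at 2, 68.9 CPM at 3 to 5 and 76.9 CPM at 6 or more. Mcl1 stood at 126 CPM at 0 UMIs and between 60.8 and 85.6 CPM in the 4 other bins, so its step came at the first UMI. In WT Vγ4 cells Bcl2a1b was 85.1 CPM at 0 UMIs and between 189 and 263 CPM in the bins of 1, 2 and 3 to 5, while Bcl2 was 112 CPM at 0 and between 44.7 and 69.7 CPM in those bins. In WT Vγ6 cells Bcl2a1b was 432 CPM (340 to 542) at 0 UMIs and from 608 to 697 CPM in the other bins. Bcl2 there ran the other way from the Vγ1 cells, from 28.3 CPM (9.20 to 66.1) at 1 UMI to 79.7 CPM (58.6 to 106) at 6 or more, though these intervals overlap. The number of Tmem176b UMIs is tied to the depth of a cell as well as to its level.

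**Figure D3:**
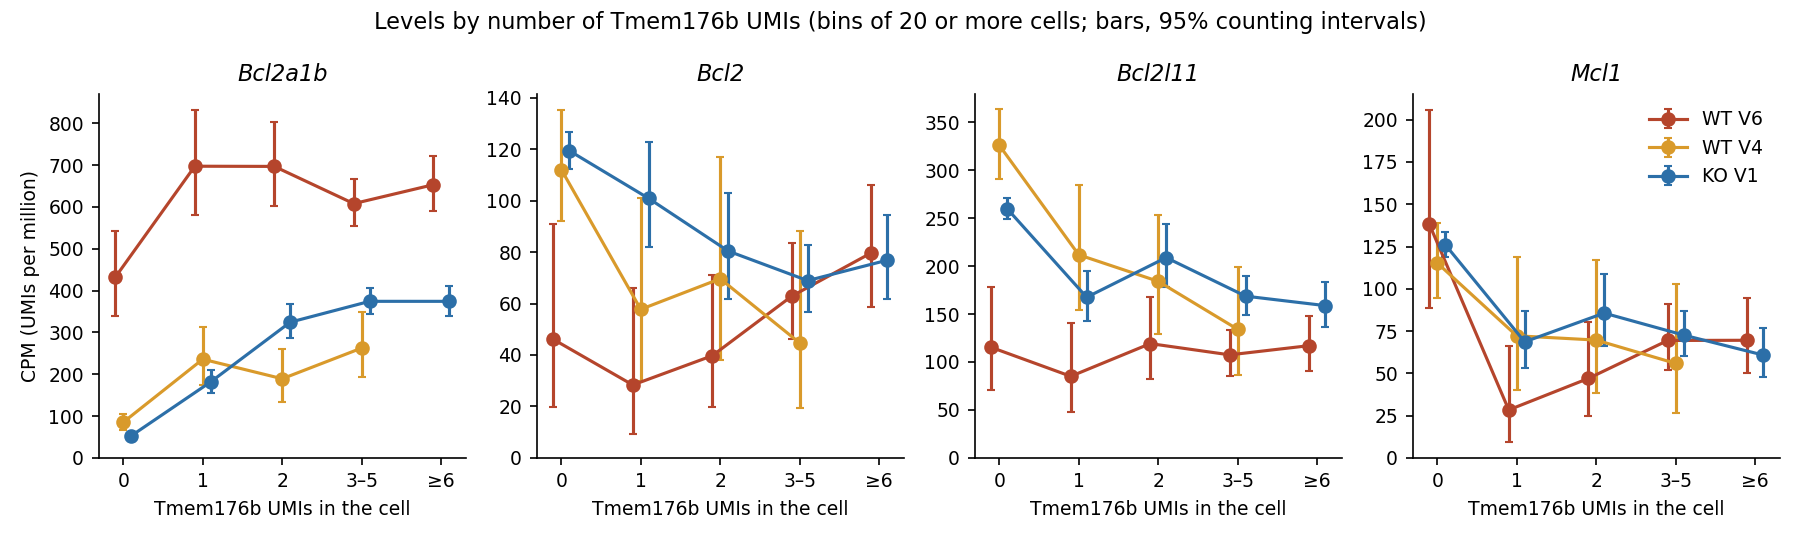
Level of Bcl2a1b, Bcl2, Bcl2l11 and Mcl1 (CPM, 1 panel per gene) by the number of Tmem176b UMIs in a cell (0, 1, 2, 3 to 5, and 6 or more) in WT Vγ6, WT Vγ4 and KO-labelled Vγ1 cells. Points are the CPM of summed UMIs in bins of at least 20 cells and lines exact Poisson 95% intervals. In Vγ1 cells Bcl2a1b goes from 52.6 to 374 CPM and Bcl2 from 119 to 76.9 CPM between the first and the last bin.

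The proportions of the 3 paralogues were compared as shares of the Bcl2a1 UMIs. Bcl2a1a made up 6.83% (5.82 to 7.97) of 2210 UMIs in Vγ6 cells, 0.538% (0.0652 to 1.93) of 372 in Vγ4 cells and 0.147% (0.0479 to 0.344) of 3391 in Vγ1 cells. The ratio of Bcl2a1d to Bcl2a1b UMIs, in contrast, was 0.66 in Vγ6 cells (0.60 to 0.72), 0.66 in Vγ4 cells and 0.73 in Vγ1 cells. In Vγ1 cells it was 0.73 with and 0.76 without a Tmem176b UMI, whereas the levels of both genes differed there about 6-fold. Bcl2a1b and Bcl2a1d thus moved together while Bcl2a1a did not. A fixed ratio is also what shared reads assigned in fixed proportions would give, and this was not tested.

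Since nearly all Bcl2a1a UMIs of the 3 groups were in Vγ6 cells, it was also read where the γ chain was not seen. Vγ6 chains are known to pair with the δ chain of Trdv4. In 54 WT cells with UMIs of Trdv4 as their only δ variable gene and no Tcrg variable gene UMI, Bcl2a1a had 6 of 119 Bcl2a1 UMIs, 5.04% (1.87 to 10.7), at 47.1 CPM (17.3 to 102). In 655 WT cells with UMIs of another δ variable gene it had 0 of 492, which allows a share of up to 0.610%, and its level there was at most 1.37 CPM by the limit of 3 UMIs. In 36 KO-labelled cells with Trdv4 as their only δ variable gene it had 0 of 96 UMIs, which allows up to 3.13%, although Bcl2a1b was 495 CPM (375 to 641) in them. In 1991 KO-labelled cells with another δ variable gene it had 3 of 849 UMIs.

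**Figure D4:**
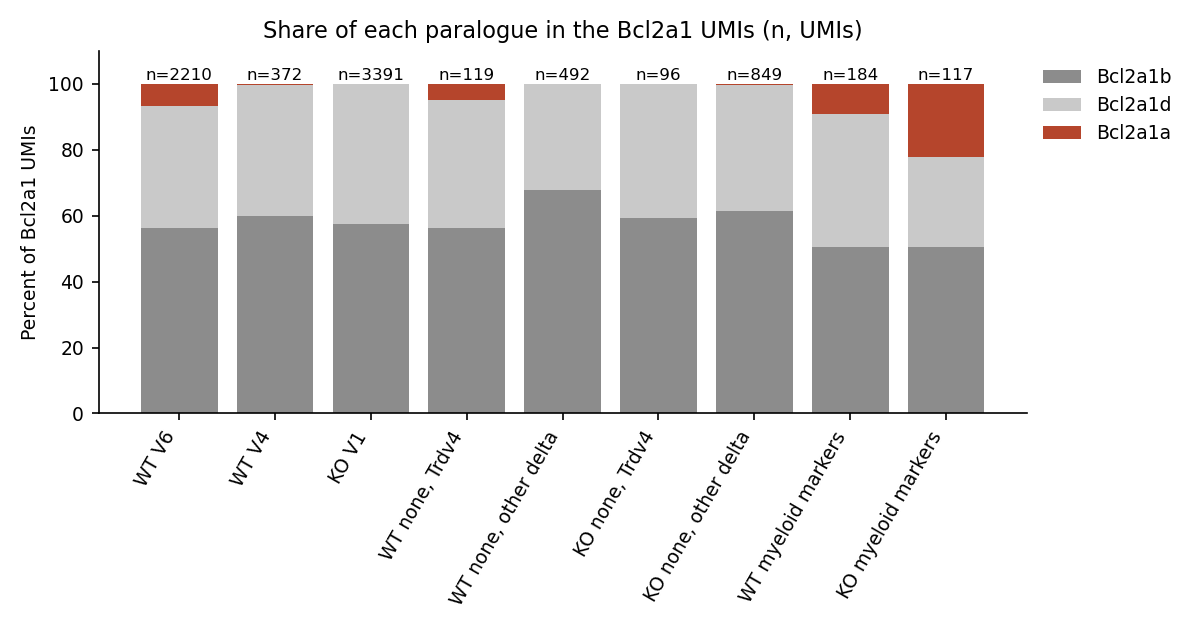
Share of Bcl2a1 UMIs read as Bcl2a1b, Bcl2a1d and Bcl2a1a (percent, stacked to 100) in 9 sets of cells, with the number of Bcl2a1 UMIs given for each set. Bcl2a1a takes 6.83% in WT Vγ6 cells and 22.2% in the KO-labelled cells with 3 or more myeloid markers, and 0.147% in KO-labelled Vγ1 cells.

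Levels of A1 are high in myeloid cells, and markers of other cell types are therefore given beside these results. The summed level of 7 myeloid genes (Lyz2, Cst3, Csf1r, Cd68, S100a8, S100a9 and Cd14) was 307 CPM in Vγ6, 507 CPM in Vγ4 and 186 CPM in Vγ1 cells. Cst3 made up most of it in Vγ6 cells, at 292 CPM, where Lyz2 was 8.08 CPM. In Vγ4 cells Lyz2 was 288 CPM, and it was higher in Tmem176b- (364 CPM) than in Tmem176b+ (169 CPM) cells, while in Vγ1 cells it was 61.5 CPM in Tmem176b+ and 6.02 CPM in Tmem176b- cells. Only 1 of the 520 Vγ6 cells, 5 of the 410 Vγ4 cells and 9 of the 2880 Vγ1 cells had UMIs of 3 or more of the 7 genes. All cells with any UMI of 9 myeloid and B cell markers were then left out, which kept 497, 387 and 2806 cells. This filter was not planned, and Cst3 and Cd79b were not among the 9. Bcl2 was then 60.7, 91.1 and 106 CPM and Bcl2a1b 629, 146 and 139 CPM. Bcl2a1a kept 149 of its 151 UMIs in Vγ6 cells, 1 in Vγ4 cells and 0 in Vγ1 cells, of 13075462 UMIs. These values were close to those of all cells. A planned filter left out cells with 2 or more UMIs of the full myeloid or B cell lists, Cst3 included. It kept 357, 351 and 2383 cells, and the Vγ1 over Vγ4 log2 ratio of Bcl2a1b was then negative, as given above.

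Vγ6 cells also stood apart when counted per cell at equal depth. Cells were cut back at random to 2000 UMIs each, and the 37 Vγ6, 25 Vγ4 and 127 Vγ1 cells below that depth were not used. A Bcl2a1b UMI was then found in 59.8% of Vγ6 cells (55.3 to 64.2), in 18.2% of Vγ4 cells (14.5 to 22.4) and in 14.9% of Vγ1 cells (13.6 to 16.3), against 72.1%, 24.6% and 23.1% without thinning. For Bcl2 the shares were 9.52% (7.06 to 12.5), 15.6% (12.1 to 19.6) and 18.2% (16.7 to 19.6), against 15.6%, 23.4% and 31.7% without thinning. Cells with 2 or more of 4 B cell markers and no Cd3 or Trdc UMI were read as a rough comparison for A1. They are few, and whether their Bcl2a1 UMIs came from background or from the cells themselves was not tested. A level within or above theirs therefore does not tell background from expression. In 20 such WT cells, with a median of 2264.5 UMIs, there were 0 Bcl2a1 UMIs of 46511, which allows up to 64.5 CPM. In 11 such KO-labelled cells, with a median of 2692 UMIs, there were 3 Bcl2a1 UMIs of 28933, or 104 CPM (21.4 to 303). The summed Bcl2a1 level of Tmem176b- Vγ1 cells, 92.8 CPM, lies within that interval. That of Tmem176b- Vγ4 cells, 139 CPM (117 to 165), lies above the limit in the WT cells. Free RNA in the droplets as their source was not tested. With Cd3 and Trdc UMIs allowed, cells with 2 or more of the 4 B cell markers held 5 Bcl2a1 UMIs in the WT and 34 in the KO-labelled library.

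Whether Bcl2 and Bcl2a1 were read in the same cells was examined at 2000 UMIs per cell, in an analysis added after seeing the data. Of KO-labelled Vγ1 cells with a Bcl2a1b or Bcl2a1d UMI, 11.3% (8.895 to 14.2) of 591 had a Bcl2 UMI, and of those without one 20.03% (18.4 to 21.8) of 2162 did. Within Tmem176b- Vγ1 cells the shares were 10.2% (6.18 to 15.7) of 176 and 20.9% (18.9 to 22.9) of 1688, and within Tmem176b+ Vγ1 cells 11.8% (8.86 to 15.3) of 415 and 17.1% (13.8 to 20.8) of 474. Bcl2 was thus read less often beside Bcl2a1 also among cells with no Tmem176b UMI, while among cells with one the intervals overlap. In Vγ4 cells the shares were 10.6% (5.22 to 18.7) of 94 and 17.2% (13.0 to 22.0) of 291, and in Vγ6 cells 9.57% (6.68 to 13.2) of 345 and 9.42% (5.11 to 15.6) of 138. The shares were alike in Vγ6 cells, and the intervals overlap in Vγ4 cells.

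The other members were read in the same way. Among Vγ1 cells with and without a Bcl2a1b or Bcl2a1d UMI, Mcl1 was found in 11.7% and 20.6%, Bcl2l11 in 25.9% and 34.3%, Bcl2l1 in 4.23% and 1.67%, and Bax in 22.7% and 22.2%. Within the Tmem176b+ and the Tmem176b- cells these differences were smaller and their intervals overlap. In Tmem176b- Vγ1 cells Bcl2l11 was found in 34.7% and 36.0% and Mcl1 in 15.3% (10.4 to 21.5) and 22.4% (20.4 to 24.5). In Tmem176b+ Vγ1 cells Bcl2l11 was found in 22.2% and 28.3% and Mcl1 in 10.1% (7.39 to 13.4) and 14.3% (11.3 to 17.8). Bcl2l1 was found in 1.70% and 1.18% without and in 5.30% and 3.38% with a Tmem176b UMI. In Vγ6 cells Bcl2a1a was found in 17.7% (13.8 to 22.1) of cells with a Bcl2a1b or Bcl2a1d UMI and in 7.97% (4.05 to 13.8) of cells without one. Cells with no UMI of a gene at this depth are not cells without its RNA.

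**Figure D5:**
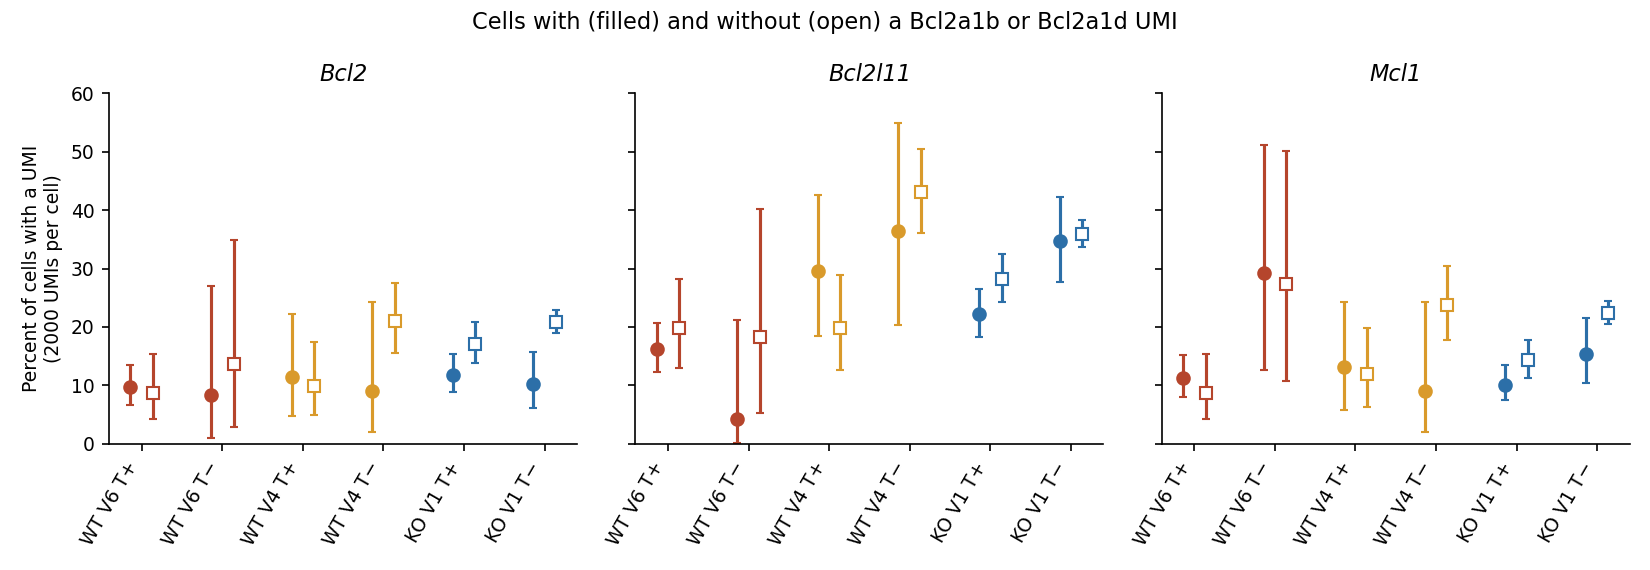
Percent of cells with a UMI of Bcl2, Bcl2l11 and Mcl1 (1 panel per gene) among cells with (filled points) and without (open points) a Bcl2a1b or Bcl2a1d UMI in the 6 cell groups, all at 2000 UMIs per cell. Lines are exact Clopper-Pearson 95% intervals. For Bcl2 in Tmem176b- Vγ1 cells the points are at 10.2% and 20.9%, with intervals that do not overlap.

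The genes with the patterns most like those of Bcl2 and Bcl2a1b were named by the root mean square difference of centred log2 CPM (1 UMI added) over the 6 cell groups, among 8951 genes with at least 100 UMIs. The 6 groups come from 2 libraries, and the measure is a description. Nearest to Bcl2 were Shfl (0.10), 2810013P06Rik (0.11), Sash3 (0.13), Neu1 (0.14) and Mboat7 (0.14), and of the members Bcl2l11 came closest, at rank 198 (0.28). Nearest to Bcl2a1b were Bcl2a1d (0.11), Coro2b (0.18), Aqp3 (0.26), Fgl2 (0.27) and Cd44 (0.27), whereas Bcl2a1a was at rank 8784. The paralogue closest in sequence to Bcl2a1b was thus also closest in pattern, and the other was among the least alike.

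Other genes of the family were read at low levels. Bcl2l10, Bcl2a1c, Bok and Hrk had 0 UMIs in the Vγ6 and Vγ4 cells, and Bcl2l2, a pro-survival gene, had 2 UMIs and 1 UMI. The effector Bak1 was 36.9 CPM in Vγ6, 24.0 CPM in Vγ4 and 38.2 CPM in Vγ1 cells. Of 7 further BH3-only genes, 5 had at least 30 UMIs in Vγ6 and Vγ4 cells together, with 0 more than 2-fold higher and 1 lower in Vγ6 cells (all genes 10.4%). That gene was Bbc3, which encodes PUMA, at 6.06 against 12.6 CPM (log2 ratio -1.06, -2.23 to 0.04). Pmaip1, which encodes NOXA, was 17.7 against 8.84 CPM, just under 2-fold. In Vγ1 cells Bik was 21.7 CPM in Tmem176b+ and 6.25 CPM in Tmem176b- cells (log2 ratio 1.79, 1.31 to 2.29), the 1 of 6 measured BH3-only genes past 2-fold there (all genes 11.6%).

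Apaf1, which encodes the scaffold of the apoptosome, was 37.4 CPM (29.3 to 46.9) in Vγ6, 17.7 CPM (11.8 to 25.6) in Vγ4 and 21.9 CPM (19.4 to 24.5) in Vγ1 cells. Xiap, an inhibitor of caspases, was between 49.8 and 80.6 CPM in all 6 groups by Tmem176b.

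Upstream, the genes that link IL-7 and IL-2 to Bcl2 did not vary as 1 group. None of 5 passed 2-fold between Vγ6 and Vγ4 cells (all genes 10.4%), and 2 were more than 2-fold higher in Vγ1 than in Vγ6 cells (all genes 18.2%). By Tmem176b in Vγ4 cells the receptor gene Il7r was higher in Tmem176b+ cells (1709 against 839 CPM, log2 ratio 1.03), whereas the signal transducers Stat5a (49.99 against 133 CPM, -1.41) and Stat5b (67.7 against 179 CPM, -1.40) were lower. In Vγ1 cells the log2 ratios were 0.70 for Il7r, -1.22 for Stat5a and -0.89 for Stat5b. By Tmem176b in Vγ4 and Vγ1 cells the Stat5 genes, but not the receptor, thus had the direction of Bcl2. A link to Bcl2 was not tested. Of 10 NF-κB and FOXO genes, 1 was more than 2-fold higher in Vγ6 than in Vγ4 cells, the cytokine gene Tnf (92.9 against 34.7 CPM), and 2 were so in Tmem176b+ over Tmem176b- Vγ1 cells, Tnf (69.1 against 14.2 CPM) and Nfkb1 (235 against 109 CPM). All genes past 2-fold made up 10.4% and 11.6% in these comparisons. For Vγ1 over Vγ6 cells 2 of the 10 were more than 2-fold lower, beside 18.2% of all genes. In Vγ4 cells 1 of the 10 was higher in Tmem176b+ cells, beside 11% of all genes. In Vγ6 cells 1 was lower, Foxo3 (28.8 against 74.9 CPM, log2 ratio -1.38), beside 16.1% of all genes. Genes induced by tissue handling (Fos, Fosb, Hspa1a, Hspa1b and 5 others) moved with the split as well. Their summed level was 5527 CPM in Vγ6, 5704 CPM in Vγ4 and 3987 CPM in Vγ1 cells. In Vγ1 cells 3 of the 9 were more than 2-fold lower than in Vγ6 (all genes 18.2%) and 4 than in Vγ4 cells (all genes 9.17%). By Tmem176b the summed level was 5183 against 3378 CPM in Tmem176b+ and Tmem176b- Vγ1 cells and 7395 against 4615 CPM in those Vγ4 cells. In Vγ6 cells it was 5686 against 3876 CPM. Their part in the differences of Bcl2a1b by Tmem176b and between groups was not tested.

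Finally, the summed levels of cell type markers also differed between the groups and by Tmem176b. Genes of IL-17-producing cells summed to 4979 CPM in Vγ6, 1745 CPM in Vγ4 and 1158 CPM in Vγ1 cells. In Tmem176b+ and Tmem176b- cells they summed to 5055 against 4182 CPM in Vγ6, 3186 against 816 CPM in Vγ4 and 2469 against 490 CPM in Vγ1 cells. Among Tmem176b+ cells this sum was thus higher in Vγ4 than in Vγ1 cells, where Bcl2a1b was 227 and 324 CPM, an order that depended on the grouping of WT cells. Type 1 genes, which mark interferon-γ-producing cells, summed to 439, 3743 and 2363 CPM. By Tmem176b they summed to 355 against 1313 CPM in Vγ6, 964 against 5532 CPM in Vγ4 and 1069 against 3023 CPM in Vγ1 cells. With 2 libraries these levels cannot be told apart as sources of the differences.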

How the data were processed

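The authors deposited gene-by-cell matrices of UMI counts, 1 per library, made per the file headers with Cell Ranger 7.0.0 (the processing notes give 7.0, the study's methods an earlier release) against mm10. Whether introns and strand were counted, and with which annotation release, is not given in sources used here. From these counts, cells with more than 200 and under 4000 genes and under 10% mitochondrial UMIs were kept, as the study's methods state. Doublets were not called. UMIs were summed over the cells of each group with Python 3.11.15 and pandas 2.3.3, and intervals were made with scipy 1.17.1. Groups with 0 UMIs were set to a floor of 3. All 32285 genes were processed, and ratios were made for those with at least 30 UMIs. The code was tested on simulated data. The named genes were the 8 members, preset lists of related genes and markers, and the 5 genes nearest in pattern to Bcl2 and to Bcl2a1b. The members and lists were chosen with earlier results of these data known. Sequences were taken from GENCODE vM21 and RefSeq for GRCm38, where 32158 of the 32285 genes were matched. Alternatives changed the cell groups, the Tmem176b split, the cell filters, the scaling and the depth of thinning. A result for 1 gene of the downstream list is not reported here.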

Additional observations from a re-analysis of the deposited data

Results flagged for a closer look

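Most of the cells described here enter none of the comparisons. The sets with myeloid markers include 1 Vγ6 and 5 Vγ4 cells (WT) and 9 Vγ1 cells (KO-labelled). All of the sets held Bcl2a1a, the paralogue that was near 0 in the Vγ4 and Vγ1 cells. In 51 WT cells with UMIs of 3 or more of 7 myeloid markers it was 56.3 CPM (32.8 to 90.2), from 17 UMIs. In 31 KO-labelled cells of the same kind it was 138 CPM (90.1 to 202), from 26 UMIs. In 54 WT cells with Trdv4 UMIs and no Tcrg variable gene UMI it was 47.1 CPM (17.3 to 102), from 6 UMIs. All 3 values lie above the level that a count of 0 allows in the 655 WT cells with another δ variable gene, 1.37 CPM.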

How the results depend on the processing

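No paired analysis was possible because the libraries, 1 a group, carry no shared replicate numbers. Settings were counted also for results whose cells they left unchanged and which they could not move. A regrouping of WT cells, for example, leaves a ratio within Vγ1 cells as it was. Of 1458 alternative values, 1243 moved by less than their counting interval, 213 moved further and 2, of ratios past 2-fold, changed sign. Both were for Bcl2l1: with WT cells holding any UMI of the Tcrg variable gene, its Vγ1 over Vγ4 log2 ratio was -0.051 in place of 1.14, and with per-cell means its Tmem176b+ over Tmem176b- log2 ratio in Vγ6 cells was -0.18 in place of 1.12. The cause was not tested. Of 1195 alternatives of log2 ratios of any size 59 had the other sign, 56 of them where the main interval includes 0. The other 3 arose with any UMI of the Tcrg variable gene: Bcl2l1 as above, and, for Tmem176b+ Vγ1 over Tmem176b+ Vγ4 cells, Bcl2a1b at -0.11 in place of 0.51 and the summed Bcl2a1 level at -0.10 in place of 0.54. With at least 2 UMIs of their own Tcrg variable gene in WT cells, the Vγ6 over Vγ4 log2 ratio of Bcl2a1b was 1.53, the Tmem176b log2 ratio of Bcl2 in Vγ4 cells -2.67 and the number of Bcl2 UMIs per 100 Bcl2a1 UMIs in Vγ4 cells 29.1. With any UMI these were, for Bcl2a1b, 1.60, and 2.14 for its Tmem176b log2 ratio in Vγ4 cells, with 25.6 Bcl2 UMIs per 100. In Vγ1 cells Bcl2 UMIs per 100 Bcl2a1 UMIs were 46.0 with Tcrg-V1 alone, 49.8 without cells holding 2 or more myeloid or B cell UMIs and 47.0 as per-cell means. The Tmem176b log2 ratio of Bcl2a1b in Vγ1 cells was 2.79 with a split at 2 UMIs, 2.06 with a split on thinned counts and 2.78 without the deepest 5% of cells. For Vγ1 over Vγ6 Tmem176b+ cells it was -0.81 with the split at 2 UMIs and -1.11 with a split on Tmem176a or Tmem176b, which also gave 2.06 in Vγ4 cells. Shares of cells followed depth: at 1000 UMIs Bcl2 was in 4.67% of Vγ6 and 11.2% of Vγ4 cells and Bcl2a1b in 42.4% and 10.8%, and without thinning these were 15.6%, 23.4%, 72.1% and 24.6%. The 108 alternatives of 8 log2 ratios of Bcl2 and Bcl2a1b (Vγ6 over Vγ4, the Tmem176b splits of Vγ4 and Vγ1 cells, and Tmem176b+ Vγ1 over Tmem176b+ Vγ6) kept their direction, whereas the Vγ1 over Vγ4 ratio of Bcl2a1b did not. These 108 include settings that could not move a ratio and, for Bcl2a1b, the summed Bcl2a1 level, of which it is a part. The split of the 62 Tmem176b- Vγ6 cells, with 8 Bcl2 UMIs, is limited by depth.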
